A study of Homo sapiens with 30 samples.

Results

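The NACC2 and TMEM250 interval is the 150-kb stretch chr9:138880001-139030000 (hg19) on the centromeric side of the NOTCH1 locus. Its members are all DpnII fragment ends whose position lies between those bounds, whatever their reads. Over the 30 tables there were 477 such ends, of 444515 distinct ends on chromosome 9, and 413 of them were listed in all 30 tables. The tables of the NOTCH1 promoter viewpoint listed 421 of them among 382657 ends, those of the S2 viewpoint 469 among 429740, and those of the S4 viewpoint 466 among 428705. The interval began 413.3 kb from the promoter viewpoint and ended 563.3 kb from it. From the S2 viewpoint it ran from 355.9 to 505.9 kb, and from the S4 viewpoint from 493.7 to 643.7 kb. A window of 500 kb around any of the 3 viewpoints would therefore cut it.

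The study measured chromatin contacts by 4C-seq in K562, an established human leukaemia line, in unedited cells (WT) and in cells mutated at CTCF sites of the NOTCH1 locus. The 4 mutants carried a mutation at S2, at S4, at S5, or at both S4 and S5 (the S4-S5 mutant). Each of the 5 genotypes was profiled from the NOTCH1 promoter, from S2 and from S4, with 2 libraries per viewpoint and genotype. The kind of mutation, the position of S5, and whether a mutant line was a single clone are not stated in the labels. The comparison asks how far contacts with this interval differed between genotypes.

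4C-seq crosslinks chromatin, cuts it with a restriction enzyme, ligates ends that lie close together in the nucleus, and amplifies everything ligated to a chosen viewpoint. The read count at a fragment end then reports how often that end was ligated to the viewpoint. CTCF is a DNA-binding protein that, with cohesin, anchors chromatin loops and marks many boundaries between topological domains, within which contacts are more frequent than across them. NOTCH1 encodes a cell surface receptor whose cleaved intracellular part acts in transcription. NACC2 encodes a BTB/POZ domain protein that acts as a transcriptional repressor, and TMEM250 encodes a small transmembrane protein. In the RefSeq annotation (GRCh38.p14) the genes follow each other in the order UBAC1, NACC2, the long non-coding RNA genes LOC124902307 and LINC02846, TMEM250, the non-coding LOC107987142, and LHX3. UBAC1 encodes a subunit of a ubiquitin ligase complex and LHX3 a LIM homeodomain transcription factor. The tables gave no gene names and an hg19 annotation was not used here, so no bin or fragment end below is assigned to a gene, exon or intron.

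The gene starts that give the interval its name are shown because 4C-seq reads out only DpnII ends, and a start without such a site is seen through its neighbours. The sequences are RefSeq's 250 bases before the annotated start, from GRCh38.p14 and not from the build of the tables, both on the minus strand. The NACC2 stretch is chr9:136095290-136095539 and the TMEM250 stretch, before the outermost of its listed starts, is chr9:136118876-136119125.
NACC2: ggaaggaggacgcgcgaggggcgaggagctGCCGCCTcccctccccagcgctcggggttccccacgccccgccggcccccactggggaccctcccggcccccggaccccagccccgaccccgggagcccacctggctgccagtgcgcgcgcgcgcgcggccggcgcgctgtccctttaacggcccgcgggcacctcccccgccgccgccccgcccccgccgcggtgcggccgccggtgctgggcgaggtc
TMEM250: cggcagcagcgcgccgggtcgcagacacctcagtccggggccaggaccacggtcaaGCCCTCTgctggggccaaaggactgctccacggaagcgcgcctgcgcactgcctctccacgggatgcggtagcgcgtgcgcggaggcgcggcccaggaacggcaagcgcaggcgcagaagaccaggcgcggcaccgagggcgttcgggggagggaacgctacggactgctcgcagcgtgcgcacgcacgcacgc
GC content was 83.2% in the NACC2 stretch and 73.2% in the TMEM250 stretch. Both strands were searched for the DpnII site GATC, for the sites of the possible second enzymes, NlaIII (CATG) and CviQI (GTAC), and for AGNNGGC, the end of the CTCF core motif. Capitals mark the matches. Neither stretch held an enzyme site, and each held 1 match to AGNNGGC. The stretch before another listed start of TMEM250, chr9:136118439-136118688, is not printed since it may overlap the 5′ UTR. It held 1 NlaIII site and 4 matches to AGNNGGC, with no DpnII or CviQI site. Among 35116 RefSeq promoter stretches of the same length, 35.8% held GATC, 47.6% CATG, 25.5% GTAC and 57.5% AGNNGGC. A match to letters this common is a description and not a binding site.

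In each of the 30 libraries the most-read end lay within 5 kb of the viewpoint, and all shares below exclude reads within that distance. The WT libraries stood apart from the mutants before any test. They held 1437870 to 2326487 chromosome 9 reads against 3500663 to 8008761 in the mutants, and a larger part of their reads outside 5 kb fell far away. Outside 5 kb the counts overlapped, at 318591 to 1518459 in WT and 76932 to 3102118 in the mutants. The most-read end held 61.4% and 62.1% of WT reads from the promoter and 86.5% to 98.3% of mutant reads. From S4 it held 24.4% and 25.5% against 50.7% to 88.7%, and from S2 56.3% and 56.9% against 55.0% to 71.9%. Reads more than 1 Mb from the viewpoint made up 25.5% ± 0.0446, 23.8% ± 0.0552 and 20.2% ± 0.0921 (SD, n = 2 each) of WT reads at the promoter, S2 and S4 viewpoints, against mutant means of 6.53% to 12.1%. Shares of 1 region are relative to all others, so every mutant against WT value below is read beside the median over all 150-kb tiles of chromosome 9. The labels do not say whether the paired libraries came from separate cultures. The p-values rest on the spread within pairs of libraries, taken over the 5 genotypes of a viewpoint together, and that spread may be technical. The labels describe no molecular identifiers, so reads cannot be counted as independent ligation events.

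At the promoter viewpoint the interval took its largest share in WT and smaller shares in all 4 mutants. The libraries held 1.94% and 1.93% of reads outside 5 kb in WT, 1.57% and 1.47% in the S2 mutant, and 1.25% and 1.27% in the S4 mutant. They held 0.759% and 0.749% where S5 was mutated and 0.862% and 0.915% where both S4 and S5 were. No mutant library overlapped WT, and no pair of genotypes overlapped each other. On the log2 scale, edgeR's fitted change against WT was -1.36 (SE 0.06) in the S5 mutant, with a Benjamini-Hochberg adjusted p of 1.69e-103 from the quasi-likelihood test. The S4-S5 mutant changed by -1.12 (SE 0.05, edgeR adjusted p 9.37e-109), the S4 mutant by -0.63 (SE 0.05, edgeR adjusted p 5.87e-35) and the S2 mutant by -0.35 (SE 0.07, edgeR adjusted p 1.5e-07).

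A fall was the rule on this chromosome. Of the 403 tiles tested at the promoter viewpoint, the same test called 83.6%, 80.9%, 79.7% and 75.9% lower, taking S2, S4, S5 and S4-S5 in turn. The median log2 change over all tiles was -4.84, -3.71, -4.49 and -2.25. The interval's fitted fall was thus smaller than that of the median tile in each of the 4 mutants. Tiles were tested at a mean of at least 10 reads per library, which WT reads alone could supply. At every viewpoint the medians can therefore rest on tiles nearly empty in the mutants, whose fitted fall is no measure of size.

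At the S2 viewpoint the interval's share rose in 1 mutant and fell in 3. The share was 1.34% and 1.33% in the WT libraries, 1.43% and 1.56% in the S2 mutant, and 1.20% and 1.19% in the S4 mutant. S5 mutant libraries held 0.806% and 0.825%, and those of the S4-S5 mutant 1.09% and 1.07%. No mutant library overlapped WT here either, and the S2 mutant stood above it. The log2 change against WT was 0.16 (SE 0.04, edgeR adjusted p 1.04e-05) in the S2 mutant and -0.17 (SE 0.04, edgeR adjusted p 5.28e-06) in the S4 mutant. Without replicate 2 of the S2 mutant its change was 0.10 (edgeR adjusted p 0.016), and leaving out each of the other libraries gave 0.16 to 0.22. The S5 mutant changed by -0.72 (SE 0.04, edgeR adjusted p 6.38e-78) and the S4-S5 mutant by -0.31 (SE 0.04, edgeR adjusted p 1.62e-17). Of 386 tiles, the test called 8.03% higher in the S2 mutant, and 82.9%, 82.4% and 79.3% lower for S4, S5 and S4-S5. The median tile changed by -7.31, -7.70, -7.91 and -7.24, taking S2, S4, S5 and S4-S5 in turn.

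At the S4 viewpoint the S2 mutant held more reads in the interval than any other genotype. The share was 1.40% and 1.37% in WT, 2.27% and 2.21% in the S2 mutant, and 1.46% and 1.47% in the S4 mutant. S5 mutant libraries held 0.929% and 0.891%, and those of the S4-S5 mutant 0.731% and 0.728%. The order was the S2 mutant, the S4 mutant, WT, the S5 mutant and the S4-S5 mutant, with no overlap between neighbours. The S2 mutant rose by 0.70 on the log2 scale (SE 0.03, edgeR adjusted p 2.17e-129), while the S5 and S4-S5 mutants changed by -0.61 (SE 0.03, edgeR adjusted p 1.5e-102) and -0.92 (SE 0.03, edgeR adjusted p 3.47e-207). The S4 mutant's 0.08 (SE 0.03, edgeR adjusted p 0.00226) rested on a WT library. Without WT replicate 2 it was 0.06, with an edgeR adjusted p of 0.0612. Of 397 tiles, the test called 6.3% higher in the S2 mutant and 10.1% in the S4 mutant, and 81.6% and 80.6% lower for S5 and S4-S5. The medians over all tiles were -6.35, -7.83, -7.16 and -7.59.

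**Figure D1:**
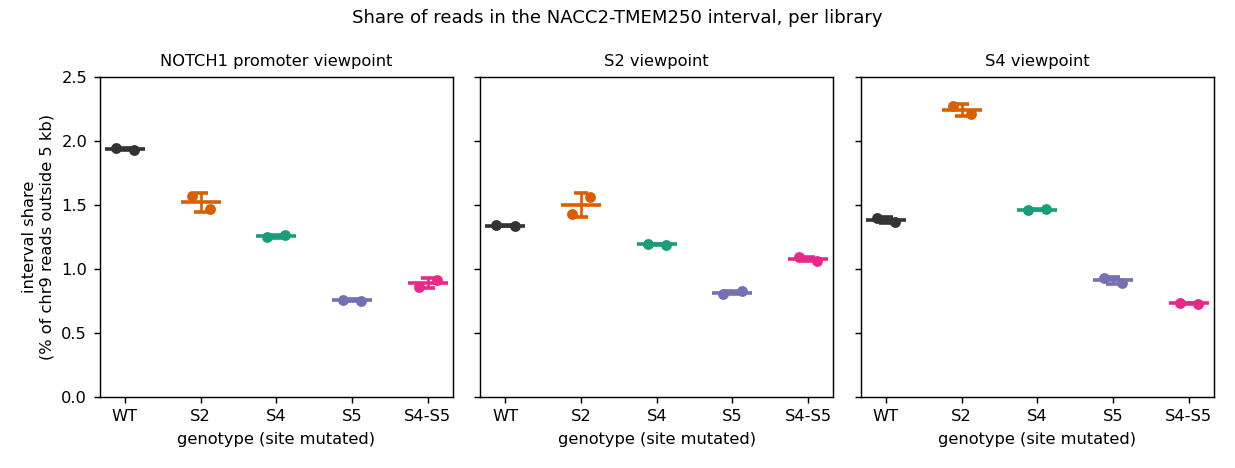
Share of the NACC2 and TMEM250 interval (vertical axis, percent of chromosome 9 reads outside 5 kb of the viewpoint) in each library (points), with the mean (long line) and SD (short lines) of 2 libraries, by genotype (horizontal axis) and viewpoint (panels). S5 and S4-S5 libraries sit below WT in every panel, while the S2 mutant lies below WT from the promoter and above it from S2 and S4.

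The 3 viewpoints therefore had in common a lower share in the S5 and the S4-S5 mutants, and differed in the S2 and S4 mutants. Across the 5 genotypes the spread between genotypes exceeded that between libraries at each viewpoint, with an exact permutation p of 0.00106, the smallest that 945 pairings of the 10 libraries allow (0.00238 adjusted over 9 tests). Among the 4 mutants alone the exact permutation p was 0.00952 at each viewpoint, again the smallest possible (0.0122 adjusted). By reads, the interval ranked between the 5th and the 10th of the 769 to 777 tiles of chromosome 9 in all 15 combinations of viewpoint and genotype. Among the 13 tiles within 1 Mb of a viewpoint it also ranked between the 5th and the 10th, so most tiles above it were near ones.

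The S4-S5 mutant was set against the single mutants that share a mutated site with it, which leaves WT out. As a share of reads outside 5 kb, it held less of the interval than the S4 mutant at each viewpoint. The log2 difference was -0.49 (SE 0.05, edgeR adjusted p 7.9e-21) from the promoter, -0.15 (SE 0.04, edgeR adjusted p 0.000101) from S2 and -1.004 (SE 0.03, edgeR adjusted p 1.36e-237) from S4. Against the S5 mutant it held more from the promoter (0.24, SE 0.06, edgeR adjusted p 0.000212) and from S2 (0.40, SE 0.04, edgeR adjusted p 1.46e-27) and less from S4 (-0.32, SE 0.03, edgeR adjusted p 9.28e-32). Against the S4 mutant the same test called 25.8%, 21% and 20.4% of tiles lower at the promoter, S2 and S4 viewpoints. Against the S5 mutant it called 42.7% and 30.6% higher at the promoter and S2 viewpoints and 21.9% lower at the S4 viewpoint. Medians over all tiles lay between -0.03 and 0.12. From S4 both medians were 0, the value fitted to a tile without reads in either mutant. They therefore cannot show whether the chromosome as a whole was shifted. With TMM factors the difference from the S5 mutant was -0.08 from the promoter and 0.01 from S2, and with all chromosome 9 reads as the total it was 0.37 from S4. With that total the difference from the S4 mutant also turned, to 0.64 from the promoter, and was -0.01 from S2 (edgeR adjusted p 0.909).

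The S4 by S5 interaction is the S4-S5 over S5 difference minus the S4 over WT difference. It was 0.87 (SE 0.08, edgeR adjusted p 1.88e-26) from the promoter and 0.57 (SE 0.05, edgeR adjusted p 2.23e-27) from S2, and -0.40 (SE 0.04, edgeR adjusted p 1.26e-25) from S4. The combined mutant thus had more of the interval than the sum of the log2 changes of the single mutants at the promoter and S2 viewpoints, and less at the S4 viewpoint. The interaction was called positive in 56.8% and 61.7% of tiles at the promoter and S2 viewpoints and negative in 13.1% at the S4 viewpoint. Its medians over all tiles were 4.50, 7.65 and 6.90. A tile with reads in WT alone has a high interaction by its definition, and such tiles were not counted. Those medians and positive calls are therefore no yardstick for the interval, which had reads in every library. The sign was not kept under every scaling. TMM gave -0.75 from the promoter and -1.70 from S2, and the total of all chromosome 9 reads gave 1.05 and non-blind ends 0.21 from S4.

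How the reads were scaled decided the sign of several of these changes. With reads scaled to those within 1 Mb of the viewpoint, which leaves the distant reads out, every change against WT was negative except that of the S2 mutant from S4, which was 0.47. The S2 mutant then changed by -0.08 from the S2 viewpoint and the S4 mutant by -0.14 from S4. The S2 mutant's rise from S4 turned into -2.17 when the reads near the viewpoint were counted in the total. TMM and DESeq2 factors are instead set from tiles with reads in both libraries compared (TMM) or in all 10 libraries of a viewpoint (DESeq2). How many tiles that left was not counted. With TMM the S5 mutant's change was 0.07, 1.24 and 1.24 from the promoter, S2 and S4 viewpoints, and the S4-S5 mutant's -0.01, 1.25 and 0.56. Under both kinds of factor the interval rose in these 2 mutants from S2 and from S4.

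**Figure D2:**
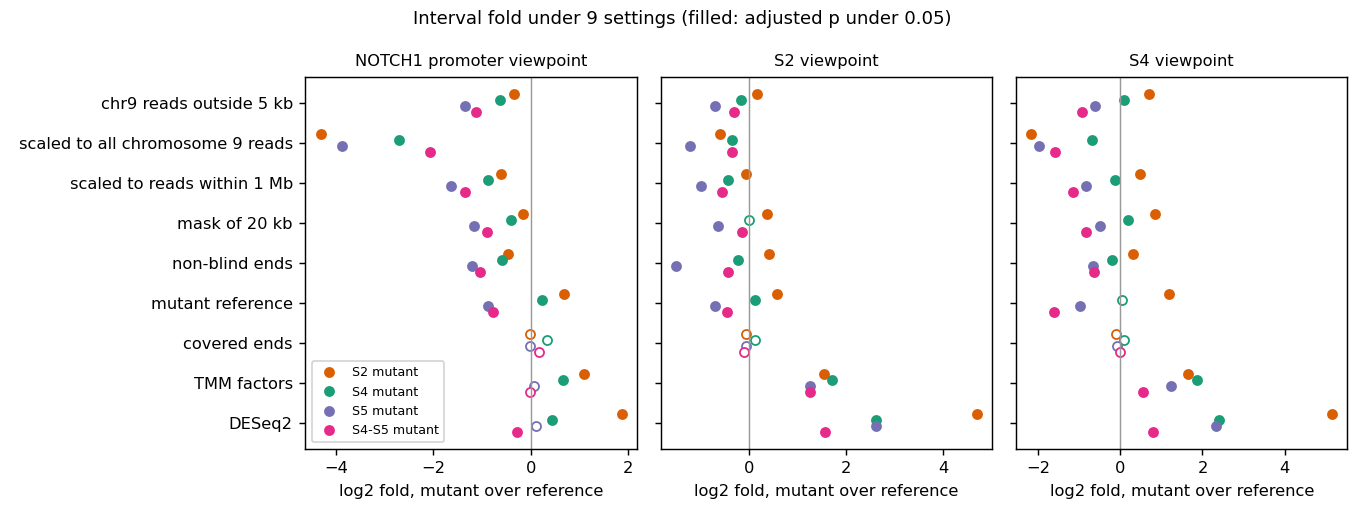
Log2 change of the interval's reads in each mutant (colours) against WT (horizontal axis), under each way of counting or scaling (vertical axis), by viewpoint (panels). In the row named mutant reference, each mutant is set against the mean of those sharing no mutated site with it, for S4-S5 the S2 mutant alone. Filled points passed an adjusted p of 0.05. Shares of reads keep the S5 and S4-S5 mutants below 0, as with -1.36 and -1.12 from the promoter, while TMM and DESeq2 factors move most points to the right. Covered ends put the S4-S5 mutant above 0 from the promoter, as an open point.

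The interval was also measured as a share of distinct fragment ends, whatever their reads. Of all ends on chromosome 9 with at least 1 read outside 5 kb, the interval held 2.50% ± 0.154 in WT, 2.47% ± 0.256 in the S2 mutant and 2.48% ± 0.0807 in the S5 mutant at the promoter viewpoint (SD, n = 2 each). The S4 mutant had 3.16% ± 0.0917 and the S4-S5 mutant 2.81% ± 0.0333. At the S2 viewpoint the means lay between 3.05% and 3.58% and at the S4 viewpoint between 3.07% and 3.52%. None of the 4 mutants passed the edgeR test against WT on this measure at any viewpoint, with edgeR adjusted p-values from 0.0602 to 0.998. Missing the threshold does not show that the genotypes were alike, and the largest log2 difference was 0.34, in the S4 mutant from the promoter.

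The interval was next compared with the 150 kb on each side, a ratio that needs no library size. It is not divided by the number of fragment ends, which was lower in the interval. At the promoter viewpoint the interval had 421 ends, against 531 on its centromeric and 514 on its telomeric side. At S2 it had 469 against 592 and 535, and at S4 466 against 594 and 535. A negative ratio therefore does not show fewer reads per end. The ends listed at a viewpoint were the same for all genotypes. In WT the interval held fewer reads than the mean of its flanks, by -0.24 and -0.27 on the log2 scale at the promoter viewpoint. The S2 mutant was at -0.18 and -0.33 there and overlapped WT. The S4 mutant was at -0.79 and -0.76, the S5 mutant at -0.77 and -0.80 and the S4-S5 mutant at -0.86 and -0.77, all below both WT libraries and overlapping each other. Genotypes differed by an exact permutation test (p = 0.0444, adjusted 0.0444), while the 4 mutants without WT gave an exact permutation p of 0.114.

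At the S2 viewpoint the ratio was -0.43 ± 0.0215 in WT, -0.42 ± 0.114 for S2 and -0.50 ± 0.0151 for S4-S5 (SD, n = 2 each), against -0.89 ± 0.00821 for S4 and -0.87 ± 0.0165 for S5. The S4 and S5 mutants were lower than the other 3 genotypes (exact permutation p = 0.0243 across genotypes, adjusted 0.0274), but with flanks of 75 kb the exact permutation p was 0.166. At the S4 viewpoint the S2 mutant was highest at -0.32 ± 0.0172, WT followed at -0.76 ± 0.0178, the S4 mutant at -0.86 ± 0.00156 and the S5 mutant at -1.003 ± 0.0515, and the S4-S5 mutant was lowest at -1.44 ± 0.0114. No neighbours in that order overlapped (exact permutation p = 0.00106, adjusted 0.00238).

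**Figure D3:**
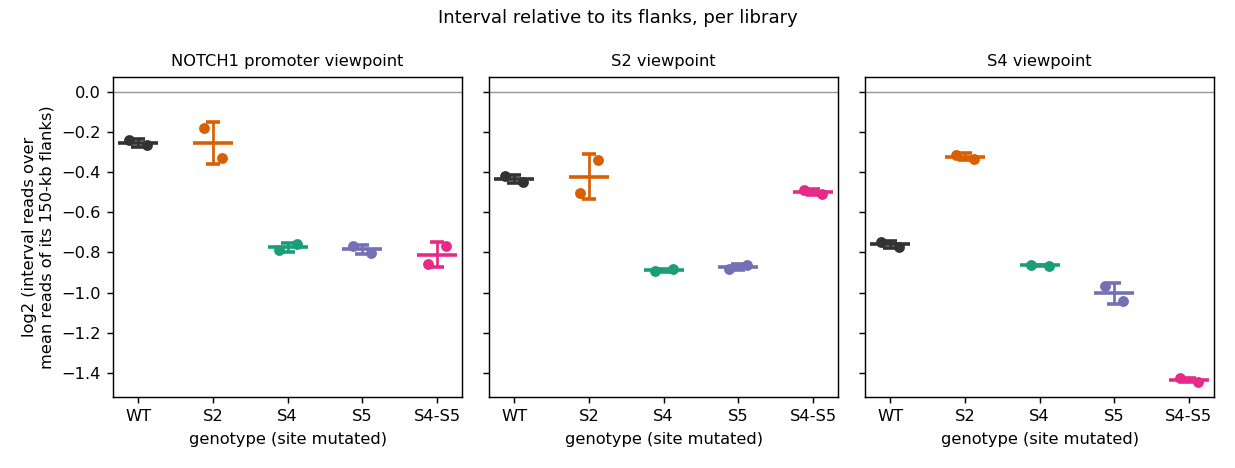
Log2 ratio of reads in the interval to the mean reads of the 150 kb on each side (vertical axis) in each library (points), with the mean and SD of 2 libraries, by genotype (horizontal axis) and viewpoint (panels). From the promoter the S2 mutant lies with WT near -0.25 and the other mutants near -0.8, and from S4 the values run from -0.32 in the S2 mutant to -1.44 in the S4-S5 mutant. Ratios are not divided by the number of fragment ends, which is lower in the interval than in either flank.

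The flanks moved with the interval in some comparisons and apart from it in others. In 6 of the 12 comparisons of a mutant with WT both flanks were called in the interval's direction. These were the S2, S5 and S4-S5 mutants from the promoter, the S2 and S5 mutants from S2 and the S5 mutant from S4. In the S5 mutant from the promoter the far flank changed by -0.98 and the flank towards NOTCH1 by -0.74, beside -1.36 in the interval. In 4 comparisons 1 flank was called in the opposite direction, and in the other 2 a flank missed the threshold. From the promoter the S4 mutant's interval changed by -0.63 while the flank towards NOTCH1 changed by -0.02 (edgeR adjusted p 0.679) and the far flank by -0.25 (edgeR adjusted p 5.79e-07). From S4, the S2 mutant's far flank changed by -1.08 (edgeR adjusted p 1.2e-202) beside rises of 0.70 in the interval and 0.54 in the flank towards NOTCH1 (edgeR adjusted p 1.22e-176). The S4-S5 mutant showed the opposite arrangement from S4, with a rise of 0.27 in the far flank (edgeR adjusted p 2.28e-19) beside falls of 0.92 in the interval and 0.49 in the near flank (edgeR adjusted p 2.06e-150). Against the stretch at the same distances on the telomeric side of the viewpoint, the interval's log2 ratio from S4 was 0.06 ± 0.0733 in WT and 2.97 ± 0.0485 in the S2 mutant. From the promoter it was 0.17 ± 0.0232 in WT and -0.60 ± 0.0731 in the S2 mutant.

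Within the interval, 14 of the 15 bins of 10 kb had enough reads to test at each viewpoint. The other bin, chr9:138930001-138940000, held no listed fragment end at any viewpoint, so contacts with it could not be measured. From the promoter, the S5 and S4-S5 mutants each had 13 bins lower and 1 higher, the S2 mutant 11 lower and 2 higher, and the S4 mutant 8 lower and 4 higher. From S2 the counts of lower and higher bins were 9 and 5 in the S2 mutant, 7 and 3 in the S4 mutant, 11 and 3 for S5 and 7 and 4 for S4-S5. From S4 they were 8 and 6, 5 and 8, 9 and 3, and 11 and 2 in the same order of mutants. The background over all 10-kb bins of the chromosome, taking S2, S4, S5 and S4-S5 in turn, was 63%, 57.2%, 61.9% and 57.1% lower and 10.4%, 20.7%, 15.9% and 30.5% higher from the promoter. From S2 it was 67.9%, 62.8%, 66.2% and 62.1% lower and 6.28%, 20.8%, 12.1% and 24.5% higher, and from S4 71.3%, 66.2%, 69.2% and 65.7% lower and 8.65%, 18.4%, 13.7% and 19.6% higher. Most counts of lower bins were thus near what the chromosome gives for 14 bins. The counts of higher bins in the S2 mutant from S2 and S4 and in the S4 mutant from S4 were above it, and lower bins in the S5-mutated cells from the promoter too, a description with no test.

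Changes shared by all mutants were counted bin by bin. Bins lower in all 4 mutants numbered 5 from the promoter, 4 from S2 and 1 from S4, where 41.6%, 48.1% and 54.8% of all bins were. None was higher in all 4 at any viewpoint, against 1.88%, 0.794% and 1.28% of all bins. Both S5-carrying mutants were lower together in 12, 6 and 8 bins, beside 51.1%, 55.6% and 61.1% of all bins, and moved in opposite directions in 2, 4 and 3, beside 10.9%, 12.8% and 9.43%. From the promoter the 5 of 14 bins lower in all 4 lay near the chromosome's share. From S4 the 1 of 14 lay below it, a difference that was not tested.

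Most of the bins with the highest WT shares lay towards the NOTCH1 end of the interval. From the promoter they were chr9:138980001-138990000 with 0.269% ± 0.0135 of reads outside 5 kb, chr9:139000001-139010000 with 0.267% ± 0.0148 and chr9:138950001-138960000 with 0.254% ± 0.00195 (SD, n = 2 each). From S2 they were chr9:139010001-139020000 with 0.248% ± 0.0106, chr9:138900001-138910000 with 0.163% ± 0.00437 and chr9:139000001-139010000 with 0.147% ± 0.00589. From S4 the same stretch led, with 0.214% ± 0.00776 at chr9:139010001-139020000 and 0.192% ± 0.00867 at chr9:139000001-139010000, followed by 0.164% ± 0.00473 at chr9:138960001-138970000. Only chr9:139000001-139010000 was among the leading 3 at every viewpoint. Bin shares are not divided by the number of fragment ends. From the promoter the 3 bins had, in the order given, 46, 43 and 47 ends, the most of the interval. From S2 they had 25, 30 and 46, and from S4 25, 46 and 50.

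The largest rise of each mutant at each viewpoint spanned log2 changes from 0.35 to 3.14. In the S2 mutant from the promoter, chr9:138910001-138920000 rose from 0.130% ± 0.00016 in WT to 0.736% ± 0.0111 (log2 change 2.49, SE 0.08, edgeR adjusted p 1.76e-187), about as much as the whole interval held in the S5 mutant. In the same mutant from S4, chr9:138970001-138980000 rose from 0.0385% ± 2.86e-06 to 0.339% ± 0.00548 (log2 change 3.14, SE 0.09, edgeR adjusted p 1.1e-227). The S2 mutant's largest rise from the S2 viewpoint was of like size, at chr9:138980001-138990000, from 0.0311% ± 0.00318 to 0.262% ± 0.02 (log2 change 3.07, SE 0.13, edgeR adjusted p 3.06e-112). In the S5 mutant from S2, chr9:138960001-138970000 rose from 0.0597% ± 0.000761 to 0.379% ± 0.000732 (log2 change 2.67, SE 0.10, edgeR adjusted p 6.52e-156). That bin also had the largest rise of the S4 mutant from S2, to 0.202% ± 0.00355 (log2 change 1.76, SE 0.10, edgeR adjusted p 6.99e-73). The S4-S5 mutant from S2 rose at chr9:138990001-139000000 from 0.0252% ± 0.00191 to 0.151% ± 0.0138 (log2 change 2.58, SE 0.14, edgeR adjusted p 1.1e-74). From S4, chr9:138990001-139000000 had the largest rise both for S5 (log2 change 1.01, SE 0.08, edgeR adjusted p 2.26e-39) and for S4-S5 (log2 change 1.35, SE 0.08, edgeR adjusted p 2.98e-70). The largest rises of the S4, S5 and S4-S5 mutants from the promoter were 1.16, 1.20 and 0.35, and that of the S4 mutant from S4 was 1.51. Some of these rises lay largely on 1 fragment end. In the S2 mutant from the promoter, the end at 138916765 held 361 and 368 of the bin's 572 and 596 reads. For S4-S5 from S2, the end at 138992945 held 1770 and 2373 of 3179 and 4393. For S5 from S2 the part was smaller, 2722 and 2628 of 7197 and 6826 at 138961026.

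Falls ran down to bins with few reads or none left. From the promoter, chr9:138940001-138950000 held 0.0104% ± 0.000924 in WT and no read in either the S2 or the S5 mutant, which makes it at least 5.58-fold and at least 14.5-fold lower with 3 reads per pair of libraries as the floor. Its fitted fall is no measure of size. This bin had only 8 fragment ends at each viewpoint, against 20 to 51 in the other tested bins. Its falls from the promoter and from S4 rest on those few ends. A bin with more WT reads, chr9:138970001-138980000, was named after its values were seen. It fell from 0.116% ± 0.00575 in WT to 2 reads over both libraries of the S2 mutant (log2 change -6.48, SE 0.42, edgeR adjusted p 2.55e-51) and 3 reads in the S5 mutant (log2 change -7.24, SE 0.32, edgeR adjusted p 2.81e-108). As ratios of pooled shares it was 91.4-fold lower in the S2 mutant (exact 95% counting interval 25.2 to 756) and 158-fold lower in the S5 mutant (53.9 to 767). Such intervals, here and below, treat reads as independent and leave out the spread between libraries, so they may be too narrow. From S2, the leading WT bin, chr9:139010001-139020000, fell from 0.248% to 0.00117% ± 0.000309 in the S5 mutant (log2 change -7.72, SE 0.18). From S4, chr9:138940001-138950000 fell from 0.0849% ± 0.00142 to 2 reads in the S2 mutant (log2 change -8.68, SE 0.33, edgeR adjusted p 4.1e-141), or 426-fold lower with an exact 95% counting interval of 118 to 3524. The same bin fell to 0.000269% ± 9.5e-05 in the S4 mutant (log2 change -8.27, SE 0.22, edgeR adjusted p 1.11e-282), with 13 reads left over both libraries. The largest falls of the S2 and S4 mutants from S2 were -7.48 and -6.01, that of the S5 mutant from S4 was -7.49 and that of the S4 mutant from the promoter -3.59. The largest falls of the S4-S5 mutant were smaller and lay in 3 different bins, with log2 changes of -2.88 (SE 0.12) at chr9:138890001-138900000 from the promoter, -2.98 (SE 0.13) at chr9:138900001-138910000 from S2 and -3.39 (SE 0.12) at chr9:138970001-138980000 from S4.

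**Figure D4:**
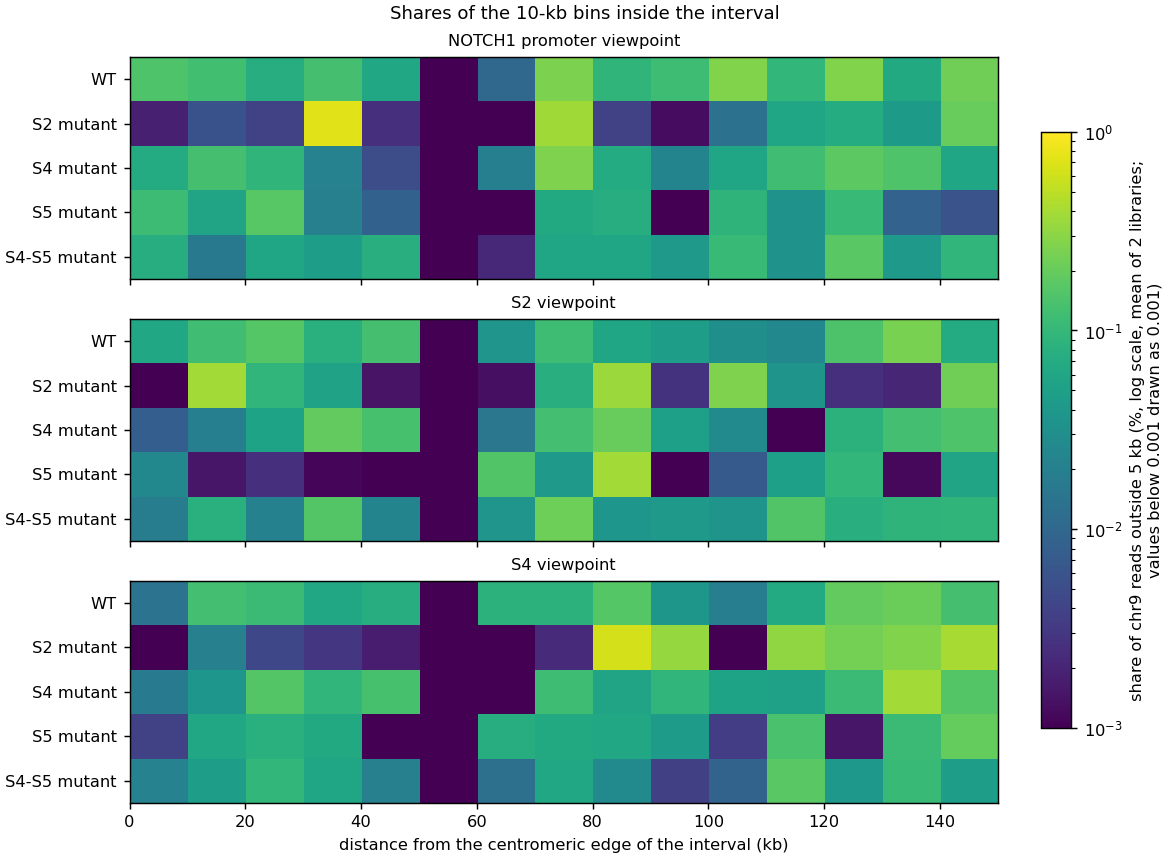
Share of reads outside 5 kb (colour, log scale, mean of 2 libraries, values under 0.001% drawn as 0.001%) in the 15 bins of 10 kb, by distance from the centromeric edge of the interval (horizontal axis, kb), genotype (rows) and viewpoint (panels). Bright single bins in the S2 and S5 mutants, such as the 0.736% bin of the S2 mutant from the promoter, stand beside dark bins, whereas WT reads are spread over most bins. The bin chr9:138930001-138940000, dark in every row, holds no fragment end and was not measured.

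The reads of the S2 and S5 mutants sat on very few fragment ends. In WT the 5 most-read ends of the interval held 18.7% ± 0.0759, 25.4% ± 0.836 and 26.1% ± 1.76 of its reads at the promoter, S2 and S4 viewpoints (SD, n = 2 each). In the S2 mutant they held 85.3% ± 0.626, 85.1% ± 0.337 and 78.0% ± 0.0681, and in the S5 mutant 53.3% ± 1.21, 69.5% ± 0.826 and 44.8% ± 1.37. The S4 mutant, with 20.8% to 29.4%, and the S4-S5 mutant, with 21.7% to 34.3%, lay much closer to WT. Put as an effective number of ends, the inverse of the summed squared shares, WT had 56.5 ± 0.589 ends at the promoter viewpoint and the S2 mutant 5.77 ± 0.151.

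WT also covered the most ends when libraries were thinned to 1 number of reads outside 5 kb, which leaves their interval reads unequal. The promoter libraries of the S2 mutant were the shallowest, with 1211 and 1202 interval reads, but from S2 the same mutant had 11731 and 14097 interval reads against 9583 and 12471 in WT and still covered 80 and 78 ends against 150 and 149. With every library thinned to the reads outside 5 kb of the smallest library of its viewpoint, the mean number of interval ends with a read was 102 in WT and 39.5 to 76.5 in the mutants from the promoter, 147 and 60.4 to 86.6 from S2, and 132 and 59.7 to 88.9 from S4. Numbers of ends at equal interval reads were not computed.

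**Figure D5:**
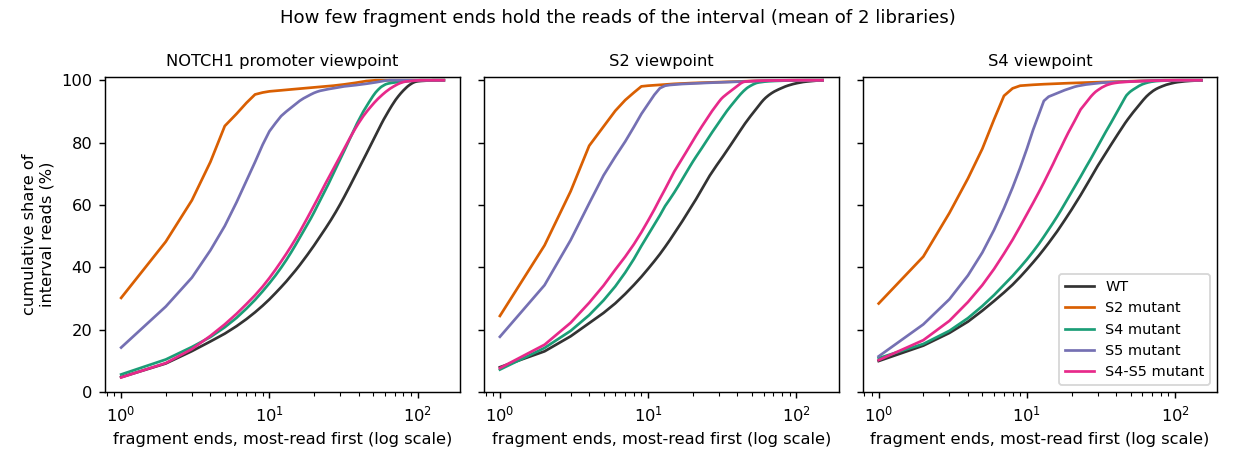
Cumulative share of the interval's reads (vertical axis, percent, mean of 2 libraries) held by its fragment ends taken from the most read downwards (horizontal axis, log scale), by genotype (colours) and viewpoint (panels). At the promoter viewpoint the first 5 ends hold 85.3% in the S2 mutant and 18.7% in WT.

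The interval's share was also taken without those ends, which removes most reads wherever reads are concentrated, so the values are a description. With the 5 most-read ends of each library taken out, the interval's share in the S2 mutant was 0.222% ± 0.00897 from S2 and 0.493% ± 0.011 from S4, below the 0.999% ± 0.00637 and 1.02% ± 0.0403 of WT treated in the same way. From the promoter it was 0.223% ± 0.0206 against 1.57% ± 0.0081. The S5 mutant, at 0.352%, 0.249% and 0.502%, and the S4-S5 mutant, at 0.695%, 0.710% and 0.479%, were below WT too. The S4 mutant from S4 was at 1.06% ± 0.00368.

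The leading ends differed from genotype to genotype. Read counts at the single ends of the interval, as log2(reads + 1), correlated at r = 0.919 to 0.989 between the 2 libraries of a genotype over 421 ends at the promoter viewpoint, and at 0.00938 to 0.237 between genotypes. At S2 the ranges were 0.908 to 0.990 and 0.184 to 0.443 over 469 ends, and at S4 0.940 to 0.993 and 0.221 to 0.444 over 466 ends. These are descriptions across ends of the same libraries, which share depth. From the promoter only 2 of 421 ends were read in all 10 libraries, 202 were read in none, and from S2 and S4 the ends read in all libraries numbered 23 and 26. The 8 ends that WT and the S2 mutant both read in both libraries from the promoter were 7.62% of the 105 such WT ends and 38.1% of the mutant's 21.

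The 5 leading ends of the S2 mutant from the promoter, which held 85.3% ± 0.626 (SD, n = 2) of its interval reads, held 0.0494% to 1.26% in the 8 libraries of other genotypes. Those of the S5 mutant held 53.2% ± 1.25 in its own libraries and 0% to 5.96% in the others. These ends were chosen for their reads in that mutant, so the gap is a description with no test. The same holds for the single ends with the most reads. From the promoter, the end at 138916765 had 361 and 368 reads in the S2 mutant, or 30.2% ± 0.57 of its interval reads, and 1 and 2 reads in WT. The end at 138903285 had 209 and 234 reads in the S5 mutant, 50 and 67 where S4 was mutated too, and none in WT. From S2, the end at 138961026 had 2722 and 2628 reads in the S5 mutant (17.7% ± 0.116) and 5 and 14 in WT. From S4, the end at 138965191 had 3329 and 3062 reads in the S2 mutant (28.4% ± 0.491) and 303 and 378 in WT. These ends were picked for their height in these libraries, so the contrasts are descriptions.

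An exception from S4 was the end at 139017333, the most read of the interval in both WT (1459 and 2153 reads, 9.97% ± 0.544) and the S4 mutant (3828 and 3900 reads, 10.9% ± 0.171). The S4-S5 mutant had 6.39% ± 0.0992 of its interval reads there, and the S2 and S5 mutants 0.128% ± 0.0216 and 0.123% ± 0.00153. Of the 15 leading ends, 1 per viewpoint and genotype, 5 held at least 1% of the same genotype's interval reads from another viewpoint, counting ends within 5 bases. The other 10 did not. Some places entered this count more than once, such as 139017333, which led in both WT and the S4 mutant from S4. The leading WT end from S2, 139013183, had no listed end within 5 bases at the promoter viewpoint. The S2 mutant's 138916765 end held 30.2% of interval reads from the promoter, none from S2 and 0.0141% from S4. The S4 mutant's 139017333 end held 4.90% ± 0.484 from the promoter and 2.85% ± 0.151 from S2. The S4-S5 mutant's leading end from S2, 138992945, held 7.70% ± 0.736 there and 9.48% ± 0.2 from S4. The S4-S5 mutant's leading end from the promoter, 138907733, and from S4, 138907738, lay in the same place to within 5 bases, with 4.66% ± 0.0976 and 10.3% ± 0.756 of the interval's reads, and no read from S2.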

How the data were processed

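Each of 30 deposited tables held 1 library. Per the file headers, its reads column is a raw count per fragment end of chromosome 9, which the authors deposited without normalization. Positions are hg19, and deepTools is named without a role or version, per the submitters' processing notes. Aligner, counter and read filters: not given in the sources used here. Cells were crosslinked with 2% formaldehyde and cut in 3 rounds of DpnII, per the labels' protocols, and 200 ng of template went into 16 cycles of a first PCR.

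The members, bins and lists were chosen with earlier results of these data known. Interval shares are percentages of chromosome 9 reads more than 5 kb from the viewpoint, and interval reads numbered 1202 to 36217 per library. Tiles of 150 kb, of which the interval was 1, and bins of 10 kb with a mean of at least 10 reads per library were tested with edgeR 4.0.16 (R 4.3.3) by the two-sided quasi-likelihood test. Each viewpoint's 10 libraries shared 1 fit, with library size set to those reads and Benjamini-Hochberg adjustment over all features of a contrast at a threshold of 0.05. Scripts were tested on simulated data. Genotypes were also compared by exact permutation of the between-genotype F over all pairings of libraries, upper tail, adjusted over 9 tests. The bins named are, per viewpoint, the 3 with the highest WT share and, per mutant, the largest change in each direction among called bins where WT and mutant libraries do not overlap. The ends named are the most read of each genotype and viewpoint. Alternatives were other totals and masks, non-blind, capped or covered ends, a mutant reference, TMM factors, DESeq2 1.42.0, no filter, other bin and flank sizes, a replicate block and leaving out each library. Replicate numbers were not used to pair the libraries in the main fit. Deviations of same-numbered libraries correlated at -0.14 to 0.13 over the viewpoints, which cannot show whether a replicate number was a batch. Replicate libraries differed by more than sampling noise (chi-square per degree of freedom 1.27 to 6.87).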

Additional observations from a re-analysis of the deposited data

Results flagged for a closer look

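The S4 by S5 interaction, the test of whether the S4 mutation changed the interval by a different amount in S5-mutated than in unmutated cells, passed the threshold at each viewpoint. On the log2 scale it was 0.87 from the promoter (edgeR adjusted p 1.88e-26), 0.57 from S2 (edgeR adjusted p 2.23e-27) and -0.40 from S4 (edgeR adjusted p 1.26e-25). The medians over all tiles were 4.50, 7.65 and 6.90, which tiles read in WT alone can raise. The sign turned with the scaling, to -0.75 and -1.70 with TMM factors and -0.82 and -3.68 with DESeq2 from the promoter and S2, and to 1.05 with all chromosome 9 reads and 0.21 with non-blind ends from S4.

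As shares of reads outside 5 kb, changes against WT went opposite ways between viewpoints, with each mutant library on the stated side of both WT libraries. The S2 mutant's log2 change was -0.35 from the promoter against 0.16 from S2 and 0.70 from S4. The S4 mutant's was -0.63 from the promoter and -0.17 from S2 against 0.08 from S4, which without WT replicate 2 was 0.06 (edgeR adjusted p 0.0612). With all chromosome 9 reads as the total, every one of these 6 changes was negative, from -4.32 to -0.36, and with TMM factors every one was positive, from 0.67 to 1.87. The S4 mutant from S4 was also negative with reads within 1 Mb (-0.14) and with non-blind ends (-0.19). These differences between viewpoints were not tested, since viewpoints were fitted separately.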

How the results depend on the processing

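With a replicate block, all 33 log2 changes kept their direction and their side of the threshold, and the same held for all 33 without a read filter and for all 30 results with capped ends, where the cap removed no read of the interval. Leaving out single libraries ended 1 call, that of the S4 mutant from S4 (0.06 to 0.10), and took the S2 mutant's change from S2 to 0.10 to 0.22. The S5 and S4-S5 mutants stayed below WT, and past the threshold, with other totals, the 20-kb mask and non-blind ends. With the mutant reference, the S5 mutant was below the mean of the S2 and S4 mutants, and the S4-S5 mutant below the S2 mutant. With all chromosome 9 reads as the total, the S2 mutant changed by -0.61 from S2 and -2.17 from S4, the S4 mutant by -0.68 from S4, S4-S5 against S4 by 0.64 from the promoter and -0.01 from S2, S4-S5 against S5 by 0.37 from S4, and the interaction from S4 was 1.05. With reads within 1 Mb the S2 mutant changed by -0.08 from S2 and the S4 mutant by -0.14 from S4. With the 20-kb mask the S4 mutant changed by -0.01 from S2. With non-blind ends the S4 mutant from S4 was at -0.19, S4-S5 against S5 from S4 at 0.03 and the interaction from S4 at 0.21. Against the mean of the S4, S5 and S4-S5 mutants in place of WT, the S2 mutant was at 0.69 from the promoter. Against the mean of the S2 and S5 mutants, the S4 mutant was at 0.23 from the promoter, 0.11 from S2 and 0.04 from S4. With TMM factors S2, S4, S5 and S4-S5 cells were at 1.10, 0.67, 0.07 and -0.01 from the promoter, the S4, S5 and S4-S5 mutants at 1.71, 1.24 and 1.25 from S2, then S5 and S4-S5 cells at 1.24 and 0.56 from S4. S4-S5 against S5 was then -0.08 from the promoter and 0.01 from S2, and the interaction -0.75 and -1.70. With DESeq2 the S2, S4 and S5 mutants were at 1.87, 0.43 and 0.10 from the promoter, the S4, S5 and S4-S5 mutants at 2.62, 2.62 and 1.56 from S2, then S5 and S4-S5 cells at 2.33 and 0.80 from S4. S4-S5 against S5 was then -0.40 from the promoter and -1.06 from S2, and the interaction -0.82 and -3.68. With covered ends in place of reads, S2, S4, S5 and S4-S5 cells were at -0.02, 0.34, -0.01 and 0.17 from the promoter, -0.07, 0.12, -0.07 and -0.11 from S2, and -0.11, 0.08, -0.07 and -0.01 from S4. S4-S5 against S4 was then -0.17, -0.23 and -0.10 from the promoter, S2 and S4, against S5 0.18, -0.04 and 0.06, and the interaction -0.16, -0.16 and -0.02. Exact permutation p-values for covered ends were 0.0825 and 0.121 for 5 genotypes from S2 and S4, 0.114 and 0.152 for 4 mutants, and 0.168 and 0.142 for the flank ratio from the promoter and S2. At matched depth the 4 mutants gave exact permutation p-values of 0.0857 from S2 and 0.0667 from S4. For the flank ratio, flanks of 75 kb gave 0.166 from S2 and the 4 mutants without WT 0.114 from the promoter, both by exact permutation. Bins of 30 kb gave 4 called bins in the S2, S4 and S5 mutants from the promoter and 5 in every other comparison, of 5 in the interval. Bins of 5 kb gave 25, 24, 24 and 24 from the promoter for S2, S4, S5 and S4-S5, 25, 23, 25 and 24 from S2, and 23, 26, 23 and 26 from S4, and covered ends gave 0 called bins by edgeR in all 12. Apart from the number of bins, which sets those counts, the cause of these changes was not tested. The interaction, covered ends at matched depth, the share without the 5 most-read ends, the single flanks and the 4 mutants without WT were added after seeing the data.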

Other observations

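The edges of the interval are arbitrary lines in the contact profile. From the promoter, the 10 kb just beyond the edge towards NOTCH1 held 0.307% of reads outside 5 kb in WT and 0.343% in the S4 mutant, against 0.0125% in the S2 mutant and 0.0338% in the S5 mutant. The last bin inside that edge held 0.224% in WT, 0.202% in the S2 mutant, 0.0577% in the S4 mutant and 0.00583% in the S5 mutant. The S2 and S4 mutants thus had opposite steps across the same edge. From S4, the same outer bin held 0.23% in WT and 0.00279% in the S5 mutant, and the last inner bin 0.131% and 0.195%.

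Counted per fragment end, the interval held 149 ± 1.9 times the reads of ends more than 10 Mb away in WT from the promoter, 98.5 ± 0.0427 times from S2 and 139 ± 2.92 times from S4 (SD, n = 2 each). Mutant means were higher at each viewpoint, from 169 ± 0.876 in the S5 mutant from the promoter to 2518 ± 140 in the S2 mutant from S4.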
